A study of Sus scrofa with 13 samples.

Results

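THY1, NT5E, ENG, CD44, ALCAM, MCAM, VCAM1, ICAM1, LEPR and NGFR encode surface proteins by which mesenchymal stromal cells are recognised, sorted and bound by other cells. The 10 genes were taken by symbol from the 27339 gene rows of the count tables, and all 10 symbols were present in each library. Each value is a count of reads from DNA fragments that an antibody against 5-hydroxymethylcytosine (5hmC) had pulled down. It is not a measure of RNA or of protein on the cell surface. Of the 10 genes, 7 had enough reads for the test, and ALCAM, ICAM1 and NGFR did not.

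All libraries came from cells of female domestic pigs on a high-cholesterol diet (2% cholesterol). In these pigs a coil placed in a renal artery had caused a stenosis. Mesenchymal stem cells were grown from fat of the abdomen taken 3 weeks after the stenosis had been induced. They were expanded for a few passages in medium with platelet lysate. For the 6 hypoxia libraries the cells spent 48 hours at 1% oxygen, and for the 6 normoxia libraries they stayed at 20%. Cells of animals without stenosis or on normal chow were not analysed here, and the age of the pigs is not given in the sources used here. Each group holds 1 library for each of the numbers 110, 16, 21, 33, 49 and 4 that open the sample titles. The labels leave the meaning of the numbers unsaid and do not say that the libraries of a group are separate animals. The p-values below therefore measure only how far these libraries spread, and that spread may be technical. The file names place numbers 110, 16, 21 and 33 in lane 7 and numbers 49 and 4 in lane 8.

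5hmC is made when TET enzymes oxidise 5-methylcytosine, a reaction that uses molecular oxygen, and in many cell types it lies in the bodies of transcribed genes and at enhancers. THY1 (CD90), NT5E (CD73) and ENG (CD105) form the usual positive panel for cultured mesenchymal stromal cells. CD44, ALCAM and MCAM are adhesion receptors of the same cells, VCAM1 and ICAM1 bind leukocyte integrins, and LEPR and NGFR mark stromal subsets, best described in bone marrow. No genome of a named build and no sequence table was at hand, so no sequences or coordinates are given.

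The libraries held 263578 to 714002 reads in genes, 1.69 to 2.89% of all reads counted, and the 10 marker genes took 128 to 473 of them. Another 88 to 93% of reads lay outside any feature. The feature counted per gene is not stated, and with so small a share in genes it may be exons alone. The signal given for a gene may therefore leave out its introns, promoter and enhancers. The normoxia library of number 21 was the shallowest, with the lowest share of reads in genes. The labels call the cells adipose-derived mesenchymal stem cells. At the fixed stromal marker genes, among them PDGFRA, COL1A1 and DCN, the summed signal was 733 to 1268 CPM (gene reads scaled to a common library size with TMM factors) in hypoxia and 918 to 1861 CPM in normoxia. Haematopoietic markers summed to 468 to 562 CPM in hypoxia and 358 to 594 CPM in normoxia, and endothelial markers to 465 to 630 and 347 to 604 CPM. Epithelial markers summed to 121 to 198 and 110 to 203 CPM, smooth muscle and pericyte markers to 176 to 348 and 162 to 441 CPM, and adipocyte markers to 232 to 442 and 143 to 280 CPM. No gene of these 6 lists was at 0 in all libraries. Sums of CPM over different genes depend on gene length and cannot rank the cell types, so the markers neither show nor contradict the label. Levels are for the same reason not compared between genes below.

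Among the 7 tested marker genes, VCAM1 was the one whose 5hmC signal differed between the title numbers beyond the spread within a number. It was high in numbers 33 and 4 and low in numbers 16, 110 and 21, with an 8.55-fold range between the means of single numbers. In the same test 12.8% of the 11868 tested genes passed, so 1 of 7 is near the share of all genes. In bulk DNA, more cells that carry the mark at a gene and more of the mark per cell cannot be told apart. No marker gene passed the test of hypoxia against normoxia. VCAM1 had the lower count in hypoxia in 6 of 6 numbers and missed the threshold. The summed signal of the stromal marker list was also lower in hypoxia in 6 of 6 numbers. Of its 7 tested genes, 6 had a negative log2 fold change, as had 6713 of all 11868 tested genes. Smooth muscle and pericyte markers summed lower in hypoxia in 5 of 6 numbers. Endothelial markers did so in 3, haematopoietic and epithelial markers in 2 each and adipocyte markers in 1. Of the 6 tested haematopoietic and the 6 tested endothelial genes, 5 each had a positive log2 fold change. The part of these lists in the VCAM1 difference was not tested.

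**Figure D1:**
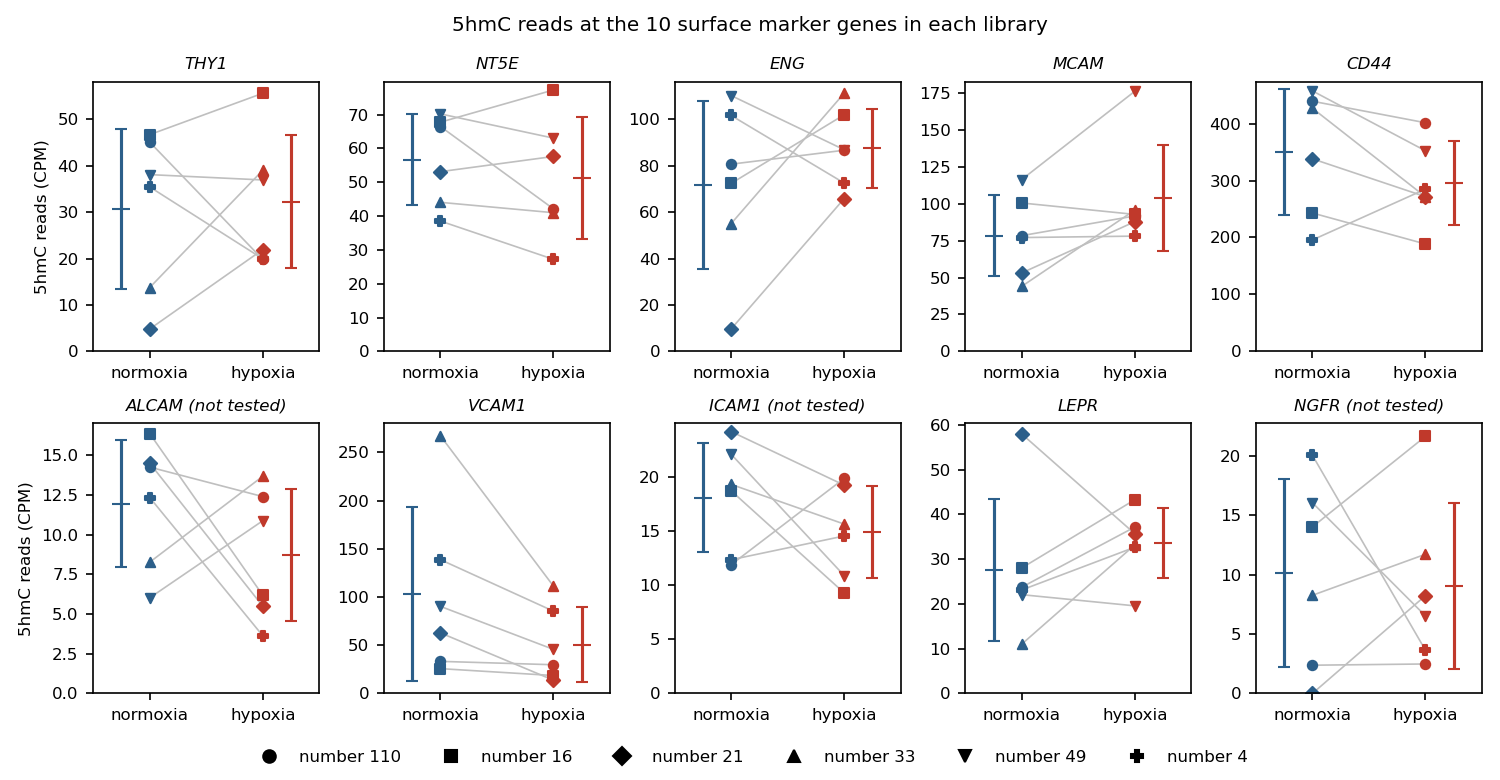
5hmC signal (CPM, vertical axes from 0) at each marker gene in the 6 normoxia (blue) and 6 hypoxia (red) libraries; symbols give the title number, grey lines join libraries of the same number, and bars give mean ± SD (n = 6). VCAM1 is lower at the hypoxia end of all 6 lines (normoxia mean 103, hypoxia mean 50.7 CPM), while the groups overlap at every gene.

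VCAM1, the vascular cell adhesion molecule that binds integrin alpha 4 beta 1 on leukocytes, is induced by inflammatory cytokines and is used to select stromal cells from marrow. It had 5 to 97 reads per library, 418 in all. In normoxia its signal was 267 CPM in number 33, 139 in number 4, 90.2 in number 49, 62.8 in number 21, 33.2 in number 110 and 25.7 in number 16. In hypoxia it was 111 CPM in number 33, 85.3 in number 4, 45.6 in number 49, 29.7 in number 110, 18.5 in number 16 and 13.7 in number 21. Numbers 33, 4 and 49 thus held the 3 highest places in both groups. The groups overlapped, since the hypoxia library of number 33 lay above 4 of the 6 normoxia libraries and that of number 4 above 3.

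The mean of both libraries ran from 189 CPM in number 33 to 112 in number 4, 67.9 in number 49, 38.2 in number 21, 31.5 in number 110 and 22.1 in number 16. The differences between numbers passed edgeR's quasi-likelihood test over the 5 number coefficients (F = 17.3, adjusted p = 1.94e-05 over all genes). Within lane 7 alone, which holds 33 but not 4, VCAM1 still passed (edgeR adjusted p = 0.000155). Without the 4 libraries of numbers 33 and 4 it did not (edgeR adjusted p = 0.148), and no marker gene passed. Number 33 and number 4 could each be left out alone without loss of the call (edgeR adjusted p of 0.0046 and 0.000141). Each number rests on 1 library per group, so neighbours in this order, such as 21, 110 and 16, were not tested against one another, and the hypoxia and normoxia values of 21 lie 4.58-fold apart.

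The summed signal of the stromal marker list was, like VCAM1, highest in numbers 33 and 4 in both groups. In hypoxia it was 1268 CPM in number 4, 1247 in number 33, 1193 in number 49, 1100 in number 110, 850 in number 16 and 733 in number 21. In normoxia it was 1861 CPM in number 33, 1395 in number 4, 1365 in number 110, 1328 in number 49, 993 in number 16 and 918 in number 21. The orders differed in normoxia, where number 110 lay close to number 4 in the stromal sum but was second lowest in VCAM1. Of the 7 tested genes of the stromal list 3 passed between numbers, beside 12.8% of all tested genes. They were PDGFRA, COL3A1 and LUM, named after their values were seen, while PDGFRB, COL1A1, COL1A2 and PRRX1 did not pass. Of the 4 tested smooth muscle and pericyte genes 1 passed, ACTA2 (edgeR adjusted p = 9.34e-07), named for having passed. So did 1 of the 6 tested haematopoietic and 1 of the 6 tested endothelial genes. In the epithelial list (2 tested) and the adipocyte list (1 tested) 0 genes passed. In each group the smooth muscle and pericyte list was lowest in the library in which the stromal sum was highest. It was at 176 CPM in hypoxia 4 and 162 CPM in normoxia 33. Other libraries did not all follow that order. The same list was highest in number 49, at 348 CPM in hypoxia and 441 CPM in normoxia, beside stromal sums of 1193 and 1328 CPM. In hypoxia 21, which had the lowest stromal sum of its group, it was at 217 CPM. The part of these lists in the VCAM1 pattern was not tested.

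**Figure D2:**
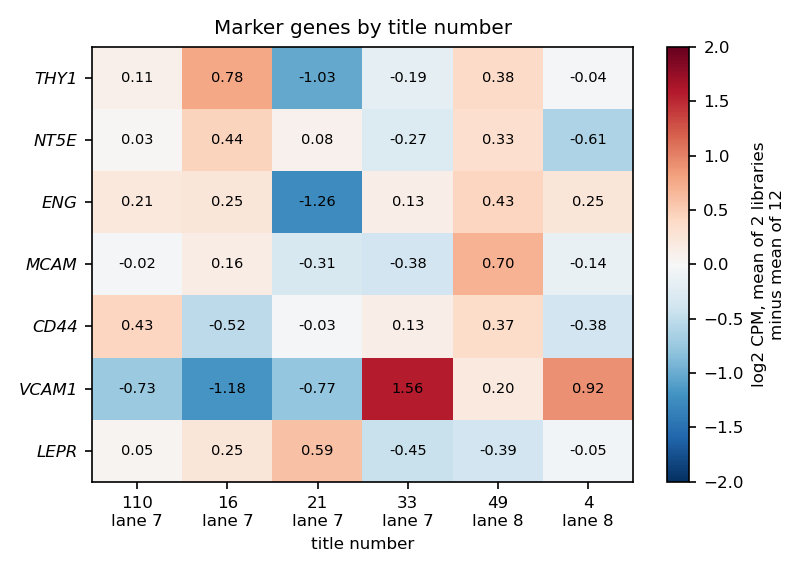
Mean log2 CPM of the 2 libraries of each title number (horizontal axis, with the lane) minus the mean of all 12 libraries, for the 7 tested marker genes; red is above and blue below that gene's mean. VCAM1 runs from 1.56 in number 33 and 0.92 in number 4 to -1.18 in number 16, and the low values of THY1 (-1.03) and ENG (-1.26) in number 21 include its shallow normoxia library.

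NETO2, ARHGAP22, PRTG and IRS1 were among the 5 genes whose log2 CPM followed VCAM1 most closely over the 12 libraries, out of 11855 genes with a mean of at least 20 CPM and outside the panel. Pearson's r was 0.956 for NETO2, an auxiliary subunit of kainate receptors, and 0.954 for ARHGAP22, a GTPase activator gene. It was 0.942 for PRTG, an immunoglobulin superfamily gene, and 0.940 for IRS1, an adaptor of the insulin receptor. They come from the top of a ranking over all these genes, and the 12 points share their libraries, their depth and the spread between numbers. Over the 8 libraries left without numbers 33 and 4, r was 0.897, 0.903, 0.795 and 0.830 in the same order. Since they were chosen for following VCAM1 over these libraries, their own differences between numbers and between hypoxia and normoxia are no separate result. None of them passed for hypoxia in either fit.

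NETO2 was in normoxia at 171 CPM in number 33, 108 in number 49, 105 in number 4, 67.6 in number 21, 42.7 in number 110 and 28.0 in number 16. In hypoxia it was at 93.7 CPM in number 33, 90.7 in number 4, 63.0 in number 49, 42.1 in number 110, 38.4 in number 21 and 27.8 in number 16. NETO2 was highest in number 33 in both groups and lower in hypoxia in 6 of 6 numbers. In number 110 (42.1 against 42.7 CPM) and number 16 (27.8 against 28.0 CPM) the 2 values were nearly equal. As NETO2 was chosen for following VCAM1, its likeness to VCAM1 is no separate result.

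**Figure D3:**
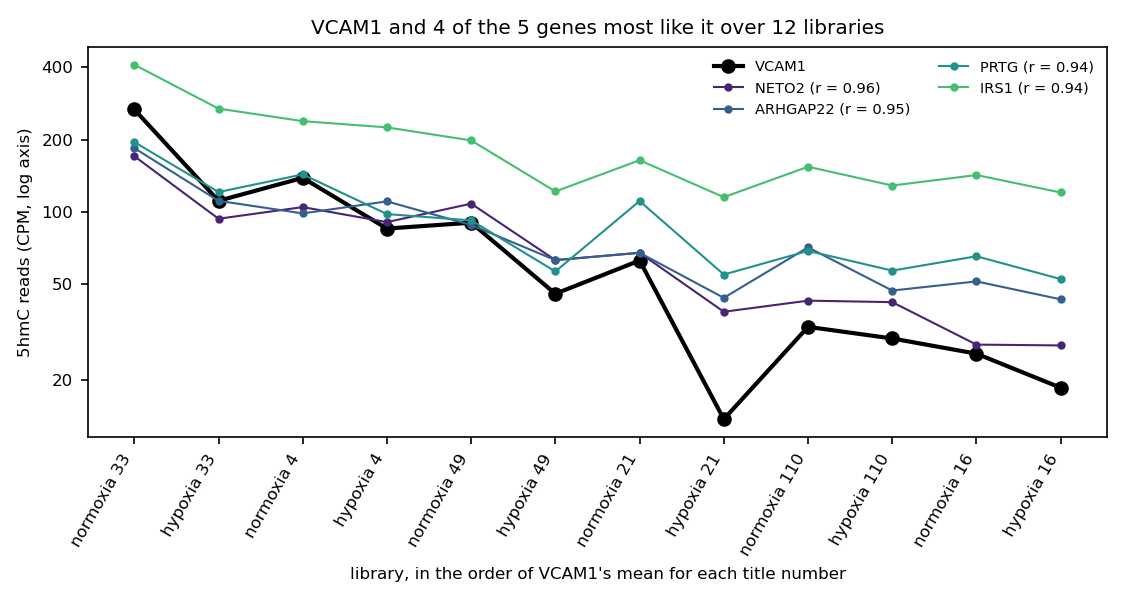
5hmC signal (CPM, log axis) of VCAM1 (black) and 4 of the 5 genes most like it, by library, with the libraries in the order of VCAM1's mean per title number. All 5 lines are highest in normoxia 33, where VCAM1 reaches 267 CPM and IRS1 410 CPM.

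Of the genes near VCAM1 in the RefSeq order of assembly Sscrofa11.1, CDC14A, a phosphatase gene, had r = 0.823 with it and rank 155 among all tested genes. On the other side of VCAM1, EXTL2 had r = 0.607, SLC30A7 had 0.500 and DPH5 had -0.0427, with ranks of 1004, 1568 and 6105. RTCA, which follows CDC14A, was not tested for want of reads. These r values describe the 12 libraries and were not tested. The feature counted per gene is not stated, and the counts may leave out introns and the DNA between genes. Whether the counts of adjacent genes share reads was not tested.

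**Figure D4:**
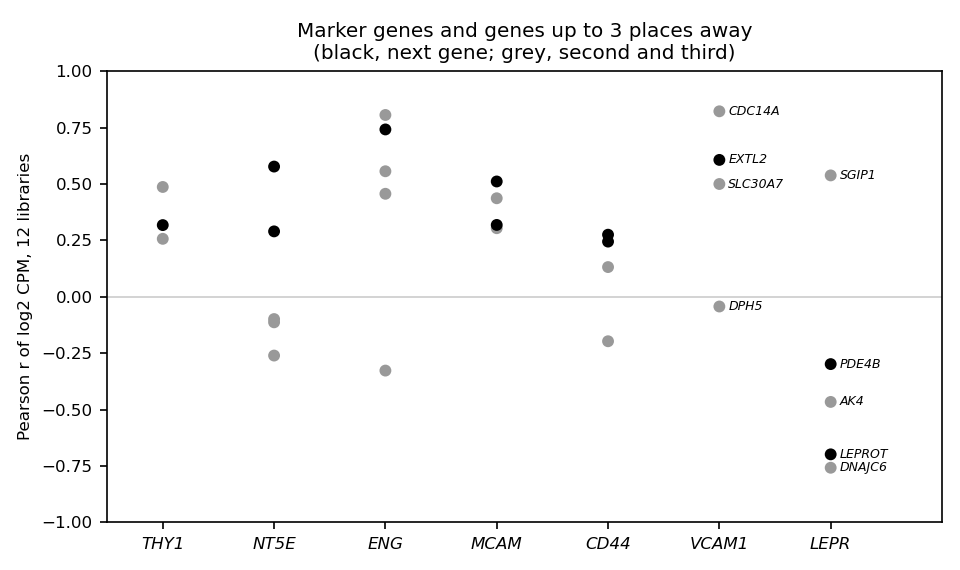
Pearson's r of log2 CPM over 12 libraries (vertical axis) between each tested marker gene and tested genes up to 3 places away in the RefSeq order; black points are the next genes, grey points those farther out. CDC14A stands highest of the genes drawn, at 0.823 with VCAM1, and DNAJC6 lowest, at -0.758 with LEPR.

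Across the 6 libraries of a group, VCAM1 averaged 103 CPM in normoxia (SD 90.4) and 50.7 CPM in hypoxia (SD 39.3). Without regard to numbers its log2 fold change was -0.97 ± 0.498 (SE; 95% interval -2.01 to 0.0583), with an edgeR unadjusted p of 0.0632 and an adjusted p of 1. Here 0 of 7 marker genes and 0% of all tested genes passed, and 0 marker genes and 324 of all genes had an unadjusted p under 0.05. DESeq2's Wald test likewise called 0 genes, with 512 of 25336 at an unadjusted p under 0.05, none a tested marker gene. With the title number as a block, the log2 fold change of VCAM1 was -0.95 ± 0.238 (95% interval -1.43 to -0.46), with an edgeR unadjusted p of 0.00038 and an adjusted p of 0.225. That fit called 4 genes, 0.0337% of those tested, and 0 marker genes.

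VCAM1 was the only marker gene with an unadjusted p under 0.05 in the blocked fit by edgeR, and DESeq2 also had 1. Across all genes 4.49% had such a p with the lower count in hypoxia and 2.6% with the higher count. Of all tested genes, 20 had a blocked p no larger than that of VCAM1. A lower value in hypoxia in 6 of 6 numbers was seen at 1 of the 7 tested marker genes and at 2.59% of all tested genes. When libraries were scaled by their size alone, the lower share among genes with an unadjusted p under 0.05 went from 63.4% to 44.2%, and VCAM1 stayed at -0.90.

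The fold between normoxia and hypoxia varied from number to number. Normoxia exceeded hypoxia 4.58-fold in number 21, on 13 and 5 reads, and 2.40-fold in number 33, on 97 and 57 reads. The excess was 1.98-fold in number 49, 1.63-fold in number 4, 1.39-fold in number 16 and 1.12-fold in number 110. Without the normoxia library of number 33, the fold change that ignores numbers was -0.43, and without the hypoxia library of that number it was -1.36. Within lanes the blocked value was -1.03 in lane 7 and -0.78 in lane 8, and without numbers 33 and 4 it was -0.90.

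**Figure D5:**
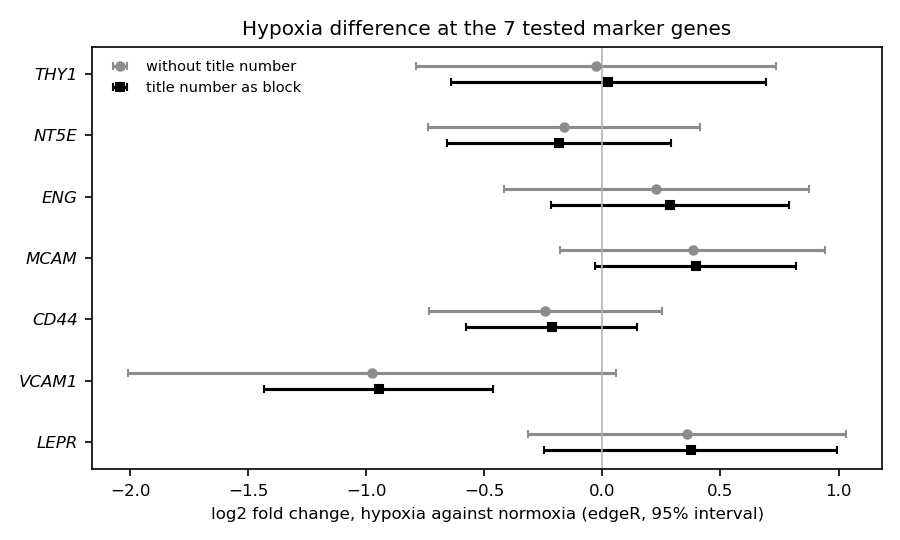
Log2 fold change of hypoxia against normoxia with 95% interval from edgeR (horizontal axis) for the 7 tested marker genes, in the fit that ignores title numbers (grey circles) and with the number as a block (black squares). VCAM1 lies at -0.97 and -0.95, and its interval leaves out 0 in the blocked fit alone, before adjustment over all genes.

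ICAM1, the ligand of leukocyte integrin alpha L beta 2 and often induced together with VCAM1, had 3 to 11 reads per library and was not tested in the filtered fit. Its signal was 9.27, 15.1 and 19.8 CPM (lowest, median, highest) in hypoxia and 11.9, 19.0 and 24.1 CPM in normoxia. The groups overlapped, and 4 of 6 numbers were lower in hypoxia. In the fit without a count filter its log2 fold change was -0.21 ± 0.372 (95% interval -0.97 to 0.55). With the number as a block and no filter, the ICAM1 value was -0.23 ± 0.389 (95% interval -0.99 to 0.53). At this depth, where 1 read was worth 1.54 to 4.83 CPM, that interval holds the value of VCAM1 in the same fit (-0.93).

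THY1, NT5E and ENG, the classical panel, kept overlapping groups. THY1 encodes a glycolipid-anchored glycoprotein. Its signal was 19.8, 29.4 and 55.6 CPM (lowest, median, highest) in hypoxia and 4.83, 36.8 and 46.7 CPM in normoxia, where the lowest value is a single read in number 21. The groups overlapped, the low end in normoxia came from the libraries with 1 and 5 reads, and 3 of 6 numbers were higher in hypoxia. The log2 fold change was -0.03 ± 0.367 (95% interval -0.79 to 0.73) and turned to 0.03 with the number as a block and to 0.016 with library size as the only scaling.

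NT5E encodes the ectonucleotidase that makes adenosine from AMP outside the cell. It was at 27.2, 49.9 and 77.3 CPM in hypoxia and 38.5, 59.8 and 70.2 CPM in normoxia, lowest, median and highest. Number 4 was the lowest in both groups and 4 of 6 numbers were lower in hypoxia. Its log2 fold change was -0.16 ± 0.277 (95% interval -0.74 to 0.41). Leaving out 1 library moved it to between -0.29 (without hypoxia 16) and -0.026 (without hypoxia 4).

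ENG encodes endoglin, a co-receptor for TGF-beta and BMP9 that acts with the receptor ALK1. It was at 65.8, 86.8 and 111 CPM in hypoxia and 9.66, 76.6 and 110 CPM in normoxia. The lowest normoxia value, from 2 reads in number 21, lay apart, and the other 5 normoxia libraries, from 55.1 CPM up, overlapped with hypoxia. The log2 fold change was 0.23 ± 0.312 (95% interval -0.42 to 0.88). Without the normoxia library of number 21 it was 0.05, without that of number 49 it was 0.38, within lane 7 it was 0.68 and within lane 8 it was -0.37.

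THY1 and ENG had the highest correlation of any pair among the 7 tested marker genes, with r = 0.843 over 12 libraries and 0.654 over the 11 without normoxia 21. ENG also had r = 0.733 with the log2 of the library's gene reads and 0.770 with the share of reads in genes. THY1 and MCAM are separated by 4 genes in the RefSeq order and had r = 0.643, or 0.535 without normoxia 21. These are descriptions over libraries that share depth, and the part of depth in them was not tested.

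CD44, the main receptor for hyaluronan, had the most reads of the panel, 61 to 228 per library, and so the smallest counting error. It was at 189, 278 and 401 CPM in hypoxia and 196, 382 and 457 CPM in normoxia, lowest, median and highest. In 5 of 6 numbers hypoxia was lower, with number 4 the exception at 285 against 196 CPM, and the groups overlapped over most of their range. The log2 fold change was -0.24 ± 0.238 (95% interval -0.74 to 0.25). It was -0.13 without hypoxia 16, -0.36 without normoxia 4 and -0.00061 within lane 8. Between numbers the mean ran from 420 CPM in number 110 to 216 in number 16, with an edgeR adjusted p of 0.0985. CD44 passed that test when both libraries of number 21 (edgeR adjusted p = 0.0236) or of number 4 (0.0359) were left out.

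MCAM (CD146), an adhesion molecule of pericytes and stromal cells, was at 78.0, 92.2 and 176 CPM in hypoxia and 44.1, 77.7 and 116 CPM in normoxia. In 5 of 6 numbers hypoxia was higher, the groups overlapped, and the library of hypoxia 49 stood well above the other 5. The log2 fold change was 0.38 ± 0.27 (95% interval -0.18 to 0.94), or 0.40 ± 0.209 with the number as a block, with an edgeR adjusted p of 0.711. Without the hypoxia library of number 49 the value that ignores numbers was 0.17.

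ALCAM (CD166), a receptor for CD6 on T cells, had 2 to 8 reads per library, 53 in all. Its signal was 3.63, 8.52 and 13.7 CPM in hypoxia and 6.02, 13.3 and 16.4 CPM in normoxia, with 4 of 6 numbers lower in hypoxia and overlapping groups. The log2 fold change without a count filter was -0.40 ± 0.452 (95% interval -1.31 to 0.52).

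LEPR, the leptin receptor, marks perivascular stromal cells of the marrow. It had 4 to 18 reads per library. The signal was 19.6, 34.4 and 43.3 CPM in hypoxia and 11.01, 23.4 and 58.0 CPM in normoxia, with the highest value in the shallow library of number 21. Hypoxia was higher in 4 of 6 numbers and the groups overlapped. The log2 fold change was 0.36 ± 0.325 (95% interval -0.32 to 1.03), with 0.60 without normoxia 21 and 0.22 without normoxia 33. With the block it was 0.37, and 0.12 without numbers 33 and 4.

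LEPR ran against 4 of the 5 tested genes around it. LEPROT, which in human shares its start with LEPR, had r = -0.698, and DNAJC6, an auxilin gene, had -0.758, near the bottom of the ranking over all tested genes at 11468 and 11714. PDE4B and AK4 had r = -0.298 and -0.466, and SGIP1 had 0.538. LEPR itself had r = -0.764 with the share of reads in genes, and the part of that share in these values was not tested. For these neighbours r was not computed without normoxia 21, the library in which LEPR was highest. Without it, the r of LEPR turned from -0.400 to 0.380 with ENG, -0.227 to 0.312 with THY1 and -0.0174 to 0.291 with MCAM. It stayed negative with VCAM1 (-0.547 and -0.687) and CD44 (-0.376 and -0.513), and near 0 with NT5E (0.0289 and 0.0206). How reads in exons common to LEPR and LEPROT were counted is not stated, so the split between them is uncertain.

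NGFR (CD271), the p75 neurotrophin receptor, had 0 to 13 reads per library. It was at 2.48, 7.38 and 21.6 CPM in hypoxia and 0, 11.1 and 20.03 CPM in normoxia, where the value of 0 is again number 21. Hypoxia was higher in 4 of 6 numbers although the group mean was lower, 9.03 ± 7.00 against 10.1 ± 7.93 CPM (SD, n = 6 each). Its log2 fold change without a count filter was -0.39 ± 0.535 (95% interval -1.48 to 0.70).

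The genes with which these receptors work showed no hypoxia call. In each of the 8 pathway lists, 0 genes passed edgeR's test in either fit. Of the 100 pathway genes tested, edgeR's unadjusted p was under 0.05 for 0 without and for 6 with the number as a block. Over all 11868 tested genes it was so for 324 without and 841 with the block. DESeq2 called 0 of all genes in both of its fits. Integrins, selectins and other adhesion partners had 15 of 24 genes tested, 9 with a positive and 6 with a negative blocked log2 fold change and a median of 0.03, against -0.02 over all tested genes. SELP, encoding P-selectin, had the smallest p of that list, with a log2 fold change of 0.54 ± 0.259 (edgeR adjusted p = 0.7). Between numbers 4 of the 15 passed, beside 12.8% of all tested genes, named for having passed: ITGB1, ITGA9, SELE and SELPLG. ITGB1 encodes the integrin beta chain that pairs with alpha 4 to bind VCAM1. The gene of that alpha 4 chain, ITGA4, did not pass between numbers (edgeR adjusted p = 0.802), nor did ITGB7 (0.118).

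The list of NF-kB genes and cytokines, many of them known regulators of VCAM1 and ICAM1, had 16 of 23 genes tested, of which 8 had a positive and 8 a negative blocked value (median -0.05). NFKBIA, encoding the inhibitor of NF-kB, had -0.41 ± 0.223. Between numbers 2 of the 16 passed, beside 12.8% of all tested genes: NFKBIA, and IL1A, named after its value was seen.

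Endoglin and ALK1 signalling had 17 of 21 genes tested, 5 positive and 12 negative with a median of -0.21. SMAD3, a transducer of TGF-beta, had a blocked log2 fold change of -0.57 ± 0.251 (edgeR adjusted p = 0.664). Between numbers 7 of the 17 passed, beside 12.8% of all tested genes, again named for having passed: TGFBR2, TGFBR3, GDF2, TGFB2, TGFB3, SMAD1 and SMAD2. The receptor ENG itself did not pass (edgeR adjusted p = 0.368).

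Leptin receptor signalling had 11 of 17 genes tested, 2 positive and 9 negative (median -0.23), whereas LEPR itself had a blocked value of 0.37. IRS1 had the smallest p of the list, at -0.40 ± 0.177. Between numbers 2 of the 11 passed, beside 12.8% of all tested genes: IRS1, and STAT5B, named after its value was seen. IRS1 is also among the genes chosen above for following VCAM1, so its pass is no separate result. Extracellular adenosine genes had 9 of 18 tested, 2 positive and 7 negative with a median of -0.04. ENTPD1, the CD39 ectonucleotidase one step before NT5E, had -0.34 ± 0.23. Hyaluronan and CD44 genes had 10 of 17 tested, 4 positive and 6 negative (median -0.04), and VCAN, a proteoglycan that binds hyaluronan, had -0.29 ± 0.192. In neither of these last 2 lists did a gene pass between numbers.

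The neurotrophin list had 6 of 16 genes tested, 3 positive and 3 negative with a median of -0.01. NTRK3, a receptor for neurotrophin 3, had 0.39 ± 0.185, with an edgeR adjusted p of 0.7. It was higher in hypoxia in 6 of 6 numbers, but it was named for the smallest p of its list. How many of all genes were higher in 6 of 6 numbers was not counted. Between numbers NTRK3 was the 1 of the 6 to pass, beside 12.8% of all tested genes. Other stromal surface markers had 17 of 29 genes tested, 8 positive and 9 negative with a median of -0.02. FAP, a serine protease of activated fibroblasts, averaged 167 CPM in normoxia (SD 88.0, n = 6) and 101 CPM in hypoxia (SD 48.2, n = 6). Its blocked log2 fold change was -0.67 ± 0.206 with an edgeR adjusted p of 0.429, lower in 5 of 6 numbers. Between numbers 2 of the 17 passed, beside 12.8% of all tested genes: FAP, and PDGFRA, named after its value was seen.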

How the data were processed

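Per the labels' protocols, DNA was sonicated, denatured and pulled down with an antibody against 5hmC, and single-stranded libraries were sequenced from both ends. Bowtie2, Picard, HTSeq, MACS2 and edgeR are listed, with no version, per the submitters' processing notes. The authors deposited raw HTSeq counts per gene symbol for each library. For the genome build, annotation, feature type, strand setting and counting mode, the choice is not given in the sources used here. An input sample and the peak lists were not used here.

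Samples were grouped by the treatment label. Rows that name no gene (88 to 93% of reads outside any feature, 4.12 to 10.3% of low alignment quality) were left out of library sizes. The test on counts was run in edgeR 4.0.16 (R 4.3.3), using filterByExpr (minimum count 10, total 15), TMM, glmQLFit and glmQLFTest, with p adjusted by Benjamini-Hochberg over all 11868 tested genes and a threshold of 0.05. The SE divides the log2 fold change by the square root of F. CPM use TMM-scaled library sizes, correlations use log2 CPM with a prior count of 2, and intervals are 95%. DESeq2 1.42.0, other scalings, no filter, single lanes and left-out libraries were alternatives. The fits were tested on simulated counts.

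All 10 symbols matched RefSeq's table of Sscrofa11.1 (26838 of 27339 rows in all), which was used for names and gene order alone. HAS2, CEMIP2 and NRADD of the lists were not analysed here, and 209 of 212 list genes had rows. Every pair of libraries differed by more than sampling noise (lowest chi-square per degree of freedom 1.26 over 66 pairs).

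Deviations from the group mean correlated across genes between libraries of the same title number at 0.136 to 0.478, each above 0.1, so the numbers were taken to pair the libraries. The pairing comes from the titles. Numbers 33 and 4 each correlated more with another number's library than with their own partner.

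The marker genes, lists and tests were chosen with earlier results of these data known. The text names all 10 marker genes, the gene of each pathway list with the smallest p in the blocked fit, and 4 of the 5 genes most correlated with VCAM1; 1 gene is not reported here. Others are said to be named after their values were seen or for having passed.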

Additional observations from a re-analysis of the deposited data

Results flagged for a closer look

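In groups of 6 libraries, 2 of the 20 groups (10 genes in 2 conditions) held a library far from the others by Dixon's test, where chance flags about 1 group in 20. MCAM was at 176 CPM in hypoxia 49, 80.4 CPM above the next hypoxia library. LEPR was at 58 CPM in normoxia 21, on 12 reads, 29.9 CPM above the next normoxia library.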

How the results depend on the processing

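No tested marker gene passed for hypoxia under any alternative tried. Of their fold changes under alternatives, 122 kept direction and 11 turned without the block, and 85 kept it and 6 turned with the block. For THY1 the log2 fold change was -0.03 and became 0.016 with library size only, 0.025 with the replicate block and 0.18 in lane 7, and ran from -0.21 to 0.12 when 1 library was left out. With the block it was -0.38 in lane 8, -0.054 without numbers 33 and 4, and -0.22 to 0.29 when a number was left out. ENG was -0.37 in lane 8 (-0.38 with the block), and CD44 0.11 in lane 8 with the block. Marker genes passing between numbers went from 1 to 0 without numbers 33 and 4, and were 1 to 2 when a number was left out. Over all genes, hypoxia calls were 0 without and 4 with the block, 9 with the block and no filter, 0 with the block by DESeq2, in lane 7 or without numbers 33 and 4, and 0 to 12 when a number was left out. Genes passing between numbers were 1520, 2303 without a filter, 834 in lane 7, 296 without 33 and 4, and 884 to 1935 when a number was left out. The block changed no call of a marker gene. Leaving out 33 and 4 together was chosen after seeing the data. Lane 8 holds 2 numbers. The cause of these shifts was not tested. At 0 to 13 reads, ALCAM, ICAM1 and NGFR allow no firm statement.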
